A study of Homo sapiens with 3 samples.

Results

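A set of 47 human genes of RNA sensing and the interferon response was followed gene by gene in A549 cells, to ask whether a transfected small RNA raised sensing or interferon genes. The genes were chosen by name and found through the RefSeq accession of each array probe. Of the 47 genes, 45 were matched, by 62 probes, among 22439 genes matched by 31104 probes in all. No probe was matched to IFI27 or SAMD9L, which are therefore named only. A549 is an established lung adenocarcinoma (LUAD) cell line. It had been treated with the transfection reagent RNAiMAX without any small RNA (mock), with a miR-139-5p precursor or with a miR-139-3p precursor, the precursors at 10 nM per the methods of the study, and these are the strands of the same hairpin. Total RNA of each culture was hybridised to 1 array per condition, so the differences have no replicate check and no test was possible. Because mock held no small RNA, the presence of a small RNA and its sequence differed together in both comparisons with mock, and those comparisons share the mock array. The slide of the mock sample also carried miR-139-5p, but miR-139-3p was hybridised on a different slide, so that slide and transfection cannot be told apart for it. The share of spots well above background was 49.9% in mock, 48.1% after miR-139-5p and 53.1% after miR-139-3p.

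As background, cytosolic double-stranded RNA is recognised by RIG-I (RIGI) and MDA5 (IFIH1), with LGP2 (DHX58) as their regulator, and endosomal double-stranded RNA by TLR3. The cytosolic sensors signal through the mitochondrial adaptor MAVS to IRF3 and IRF7, which switch on type I and type III interferons. Secreted interferon then acts through its receptors on interferon-stimulated genes, many of which carry an interferon-stimulated response element (ISRE) near their start and include the sensors themselves.

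The mature strands of the transfected precursors are shown because the precursors differed in sequence. The slide differed between their arrays as well. Both mature strands are printed 5′ to 3′ from RefSeq (GRCh38.p14, minus strand), with the seed, bases 2 to 8, in capitals. The 5p strand lies at chr11:72615102-72615124 and the 3p strand at chr11:72615066-72615088. Their seeds are not shared.
hsa-miR-139-5p: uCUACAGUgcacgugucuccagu
hsa-miR-139-3p: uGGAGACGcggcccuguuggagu

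The ISRE core was searched on both strands as GAAA, any 2 bases and GAAA again, in windows of 250 bases before to 50 bases after each start, and overlapping matches were counted separately. It was found near the start of 23 of the 37 member genes with a window, against 4.38% of all 27305 genes with one. Excerpts around the matches of 5 members are shown, matches in capitals, because they stood before genes whose signals went in different directions, as given further on. All are from RefSeq on GRCh38.p14 and written along the gene's strand: IFIH1 from chr2:162318676-162318863 (minus), IFI6 from chr1:27672256-27672368 (minus), ISG15 from chr1:1013364-1013419 (plus), IFITM1 from chr11:313980-314063 (plus) and IFITM3 from chr11:320866-320932 (minus).
IFIH1: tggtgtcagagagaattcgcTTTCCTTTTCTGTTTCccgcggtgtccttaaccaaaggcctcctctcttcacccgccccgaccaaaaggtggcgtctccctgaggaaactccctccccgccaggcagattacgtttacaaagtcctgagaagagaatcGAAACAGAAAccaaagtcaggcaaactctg
IFI6: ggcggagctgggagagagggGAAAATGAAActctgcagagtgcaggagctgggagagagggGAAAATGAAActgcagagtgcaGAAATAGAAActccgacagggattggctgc
ISG15: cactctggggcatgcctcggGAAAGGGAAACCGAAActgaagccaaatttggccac
IFITM1: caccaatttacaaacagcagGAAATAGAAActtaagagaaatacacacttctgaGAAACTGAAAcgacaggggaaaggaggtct
IFITM3: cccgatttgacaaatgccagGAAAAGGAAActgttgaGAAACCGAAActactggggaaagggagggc

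The set as a whole was not higher with miR-139-3p. More members were higher than lower after miR-139-5p, though not in every alternative analysis, and none of those measured on both arrays passed 1. Interferon beta, interferon lambda 1 and several effectors that are usually strongly inducible were not well above background on any array, ISG15 and IFIT1 were no higher than in mock beyond the threshold, and the members that did differ went in both directions. Signals are given as scaled signals, that is, as a multiple of the 75th percentile of the array's own spots (93.6 intensity units on the mock array, 88.9 after miR-139-5p and 81.0 after miR-139-3p). The difference between arrays is the log2 fold change, averaged over the probes of a gene that were well above background on both arrays, and a gene was called higher or lower beyond 0.5 or -0.5. When a probe was well above background on only 1 of the arrays, the difference was a bound, taken against the higher of the lowest scaled signal well above background (0.0515 in mock, 0.0576 with miR-139-5p, 0.0533 with miR-139-3p) and the dim probe's own signal. For genes with 2 or more probes, the median SD between probes was 0.28 for miR-139-3p over mock, 0.15 for miR-139-5p over mock and 0.26 for miR-139-3p over miR-139-5p.

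Of the 45 matched members, 32 were well above background on all 3 arrays, 5 on some of them and 8 on none, counting RSAD2, which had a value on 2 arrays. With miR-139-3p over mock, 36 members had a value, of which 9 were higher and 11 lower. Over all 15572 genes with a value in that comparison, 26.5% were higher and 27.9% lower, shares close to those of the members. With miR-139-5p over mock, 35 members had a value, 8 of them higher and 4 lower, beside 10.7% higher and 12.3% lower over 15018 genes. With miR-139-3p over miR-139-5p, 36 members had a value, 9 higher and 9 lower, beside 26.4% and 27.9% over 15428 genes. The median log2 fold change of the members was -0.06, 0.14 and -0.15 in these comparisons, in that order, against -0.05, -0.01 and -0.04 over all genes. The median and shares of the members lay near those of all genes for miR-139-3p, but with another background correction (normexp, offset 50) 1 member was higher and 8 lower, beside 1552 and 2933 over all genes. After miR-139-5p, more members were higher than lower while the genes as a whole were balanced. The counts moved with the scaling, for members and all genes alike. When the arrays were scaled on spike-in RNA, 10 members were higher and 2 lower, 83.3% higher of those past the threshold beside 66.7% over all genes, and without scaling 7 were higher and 8 lower, 46.7% beside 33.9%. Without the filter on dim probes 8 members were higher and 9 lower, a count given for members only. At a threshold of 1 there were 0 and 2, beside 288 and 357 over all genes. Whether more members were higher than lower thus depended on these choices.

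**Figure D1:**
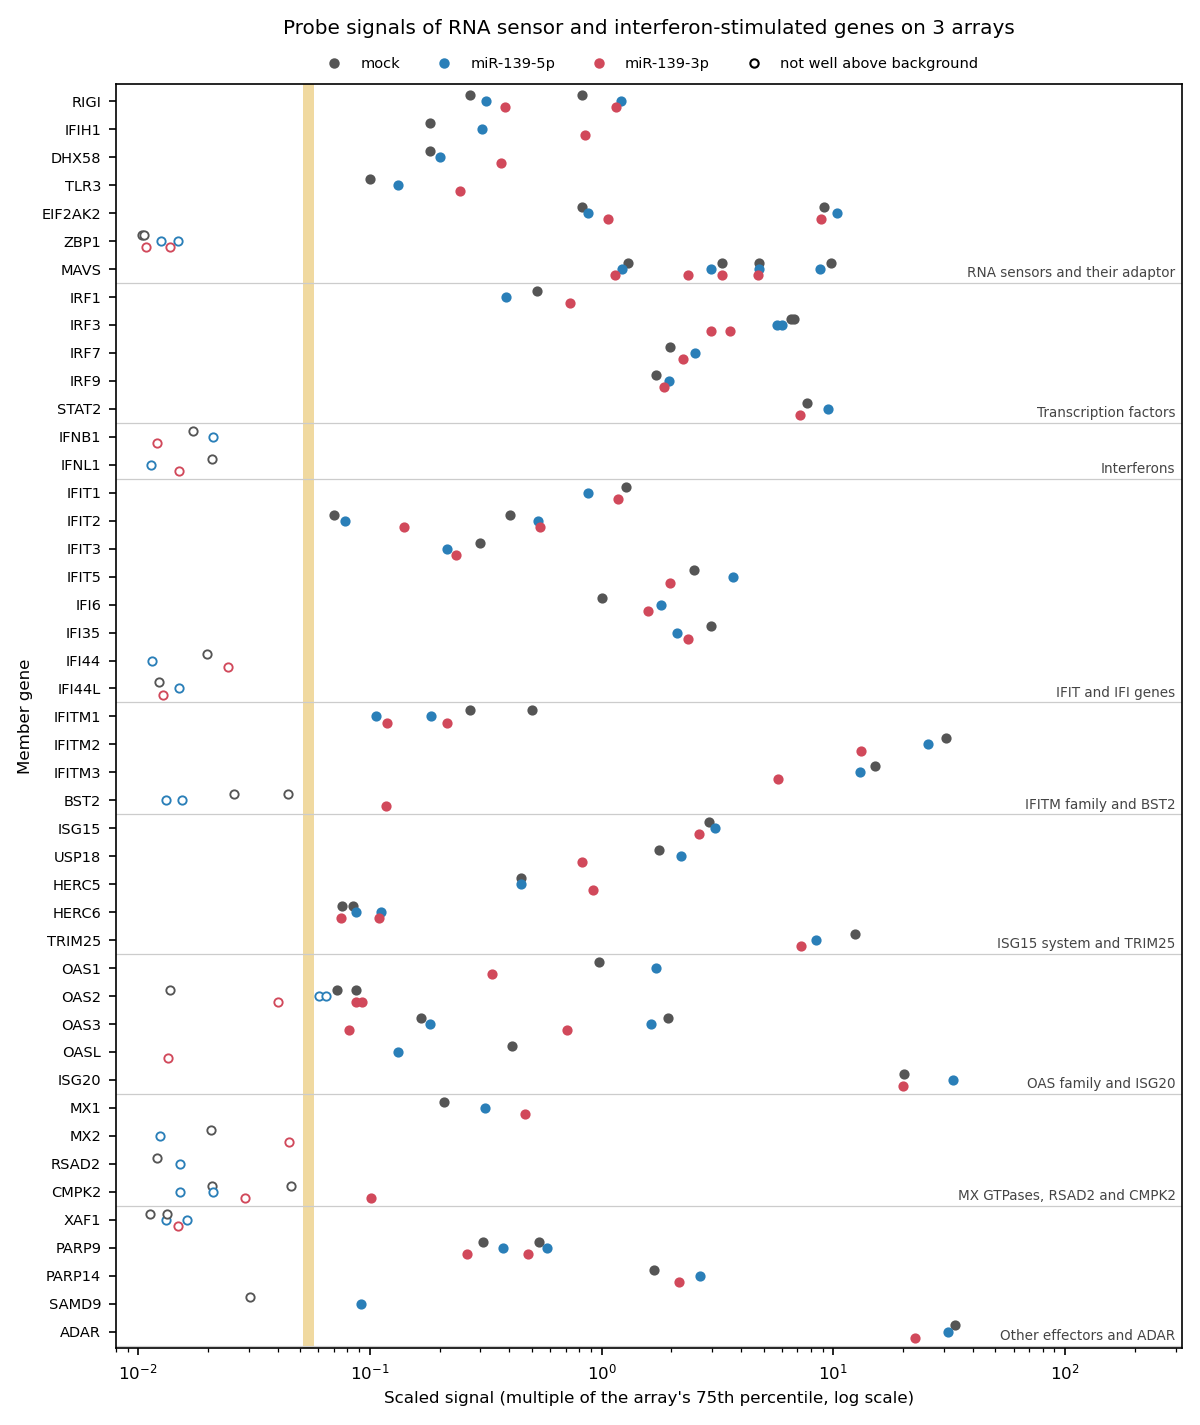
Scaled signal of each member probe (log axis, multiple of the array's 75th percentile) for mock (grey), miR-139-5p (blue) and miR-139-3p (red), 1 point per probe and array, grouped by role; open points were not well above background and the yellow band spans the lowest scaled signals that were, 0.0515 to 0.0576. IFNB1, IFNL1, IFI44, IFI44L, MX2, RSAD2, XAF1 and ZBP1 stay below the band on all arrays on which they have a value.

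Among the sensors, IFIH1 differed most. Its scaled signal was 0.181 in mock, 0.304 after miR-139-5p and 0.847 after miR-139-3p, log2 fold changes of 0.75 and 2.23 over mock, and 1.48 between the miRNAs. Both transfections were higher than mock, and miR-139-3p was the higher of them. TLR3 read 0.100 in mock, 0.132 after miR-139-5p and 0.245 after miR-139-3p, which was 0.40 and 1.29 over mock. DHX58 stood at 0.182, 0.201 and 0.367 in the same order, 0.14 and 1.01 over mock. For TLR3 and DHX58 the higher signal was thus seen with miR-139-3p, and each of these sensors rested on 1 probe with a dim signal in mock. RIGI, measured by 2 probes, had a mean scaled signal of 0.471 in mock, 0.617 after miR-139-5p and 0.665 after miR-139-3p, differences of 0.39 (SD between probes 0.23) and 0.50 (SD 0.01) that stayed within the threshold. EIF2AK2, which encodes the RNA-activated kinase PKR, read 2.74, 3.01 and 3.08 in the same order, 0.13 (SD 0.08) and 0.17 (SD 0.29) over mock, both within the threshold. ZBP1, a sensor of Z-form nucleic acid, was not well above background on any array, at 0.0105, 0.0137 and 0.0121. In all, 3 of the 5 measured sensors were higher and none was lower with miR-139-3p, and 1 of 5 was higher with miR-139-5p, counts too small to set against the 26.5% and 10.7% of all genes that were higher. The 3 higher ones were dim in mock, where higher values were common over all genes, as given further on.

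With miR-139-3p the main transcription factor downstream of the sensors was lower, and the adaptor was lower by an amount near the threshold. MAVS had a mean scaled signal of 3.77 in mock, 3.51 after miR-139-5p and 2.55 after miR-139-3p over 4 probes, -0.10 and -0.56 over mock. Its probes were all lower with miR-139-3p but ranged from -0.19 to -1.05, an SD of 0.36, so that the size of the change depended on the probe. It stayed past the threshold in 6 of 10 alternative analyses, from -1.05 to -0.40, while IRF3 did so in all 10. IRF3, which is activated by phosphorylation and is not itself interferon-inducible, read 6.67, 5.85 and 3.27, which was -0.19 and -1.03 over mock, and its 2 probes gave -0.86 and -1.19 with miR-139-3p. The interferon-inducible IRF7 showed no such drop, with 1.97 in mock, 2.54 after miR-139-5p and 2.25 after miR-139-3p. STAT2 and IRF9, which carry the signal of the type I and type III interferon receptors, were within the threshold as well. STAT2 read 7.74, 9.46 and 7.18 and IRF9 1.72, 1.95 and 1.86 in the same order. IRF1, which responds quickly to interferon gamma and to NF-kappa B, read 0.529, 0.388 and 0.731, that is -0.45 and 0.47 over mock and 0.91 for miR-139-3p over miR-139-5p.

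Neither interferon of the set was detectable. The IFNB1 probe gave scaled signals of 0.0173 in mock, 0.0211 after miR-139-5p and 0.0120 after miR-139-3p, and the IFNL1 probe 0.0209, 0.0114 and 0.0150, all below the lowest level counted as well above background. An increase within that range would not be seen on these arrays. Of 8 other interferon genes, 7 had a probe and 2 were measured. IFNE, an epithelial interferon that is not induced by RNA sensors, read 0.455 in mock, 0.405 after miR-139-5p and 1.76 after miR-139-3p, -0.17 and 1.95 over mock. IFNL2, whose sequence is nearly identical to that of IFNL3 so that its probe may read either, stood at 0.131, 0.101 and 0.250, -0.38 and 0.93 over mock. The probe of IFNL3 itself was not well above background with miR-139-3p, at 0.0141. IFNL2 was dim in mock, where higher values were common over all genes, as given further on.

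Among the IFIT and IFI genes, which are classical markers of an interferon response, no member passed 1 in any comparison. IFIT1, whose product binds RNA with a foreign 5′ end, read 1.27 in mock, 0.878 after miR-139-5p and 1.18 after miR-139-3p, -0.53 and -0.11 over mock. The former stayed past the threshold in 6 of 10 alternatives, from -0.60 to -0.30. IFIT3 gave 0.300, 0.216 and 0.236, -0.48 and -0.35 over mock. Both were highest in mock. IFIT2 read 0.168, 0.204 and 0.275 as the mean of 2 probes, 0.28 and 0.71 over mock, but with miR-139-3p the probes gave 1.00 and 0.43, an SD of 0.40. IFI6 was the member of this group that was higher in both transfections, with 1.00 in mock, 1.80 after miR-139-5p and 1.58 after miR-139-3p, 0.84 and 0.65 over mock. IFIT5 passed the threshold with miR-139-5p at 0.56, while IFI35 was within it, and IFI44 and IFI44L were not well above background on any array.

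The IFITM genes, whose products block entry of enveloped viruses at the membrane, were all lower with miR-139-3p. IFITM1 read 0.368 in mock, 0.139 after miR-139-5p and 0.160 after miR-139-3p, -1.40 and -1.20 over mock, and its 2 probes agreed within an SD of 0.06. It was lower in both transfections. IFITM2 read 30.7, 25.7 and 13.2, -0.25 and -1.22 over mock, and IFITM3 read 15.1, 13.0 and 5.78, -0.22 and -1.38 over mock. These genes were therefore lower past the threshold with miR-139-3p alone, although IFITM2 and IFITM3 are close in sequence and their probes may not tell them apart. BST2, the tetherin that holds virus particles on the cell surface, was well above background with miR-139-3p only, where 1 of its 2 probes read 0.117 against 0.0443 in mock and 0.0132 with miR-139-5p, at least 2.27-fold higher than mock.

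ISG15 conjugation showed no common direction. ISG15, the ubiquitin-like modifier itself, read 2.92 in mock, 3.08 after miR-139-5p and 2.64 after miR-139-3p, 0.07 and -0.15 over mock, smaller than the SD between probes of a gene. USP18, which removes ISG15 and restrains the interferon receptor, read 1.77, 2.20 and 0.824, 0.31 and -1.11 over mock. HERC5, the main ISG15 ligase, read 0.450, 0.448 and 0.914, -0.01 and 1.02 over mock. With miR-139-3p the ligase was thus higher and the protease lower, while the modifier stayed within the threshold. TRIM25, a ubiquitin ligase that has been linked to RIG-I, read 12.4 in mock, 8.41 after miR-139-5p and 7.28 after miR-139-3p, -0.57 and -0.77 over mock, and was lower in both.

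Of the OAS genes, whose active members make the messenger that switches on RNase L, OAS1, OAS3 and OASL were lower with miR-139-3p. OAS1 read 0.970 in mock, 1.71 after miR-139-5p and 0.336 after miR-139-3p, 0.82 and -1.53 over mock and -2.34 between the miRNAs. OAS3 read 0.570, 0.547 and 0.239, -0.06 and -1.25 over mock, with -1.05 and -1.46 from its 2 probes for miR-139-3p. OASL, the catalytically inactive member that enhances RIG-I signalling, read 0.410 in mock and 0.132 with miR-139-5p, -1.64 over mock. With miR-139-3p OASL was not well above background at 0.0134, at least 7.69-fold lower than mock. That bound held for the main processing, and the log2 fold change ranged from -4.93 to -0.59 over 9 alternatives. OAS2 was the exception, dim on all arrays, with 0.18 over mock from 2 probes for miR-139-3p. ISG20, an exonuclease, read 20.2 in mock and 33.0 with miR-139-5p, 0.71 over mock, and differed by -0.01 with miR-139-3p. OAS1 and ISG20 were thus high with miR-139-5p alone, and OASL fell from mock through miR-139-5p to miR-139-3p.

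The MX and remaining effector genes held a few higher values. MX1, a GTPase that traps viral nucleocapsids, read 0.208 in mock, 0.314 after miR-139-5p and 0.469 after miR-139-3p, 0.59 and 1.17 over mock. RSAD2 (viperin) was not well above background in mock (0.0120) or with miR-139-5p (0.0151), and its spot with miR-139-3p was left out as an outlier. MX2 and XAF1 were likewise not well above background. CMPK2, which lies beside RSAD2, was well above background with miR-139-3p only, at least 1.96-fold higher than mock, and SAMD9 was at least 1.78-fold higher than mock with miR-139-5p, its spot with miR-139-3p being left out as an outlier. ADAR, the RNA-editing enzyme that keeps self RNA from being sensed, read 33.6, 31.2 and 22.5, -0.10 and -0.58 over mock. The latter stayed past the threshold in 7 of 10 alternatives, from -0.79 to -0.32. PARP14 was higher with miR-139-5p (0.66) and within the threshold with miR-139-3p (0.35), and PARP9 was within it in both.

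**Figure D2:**
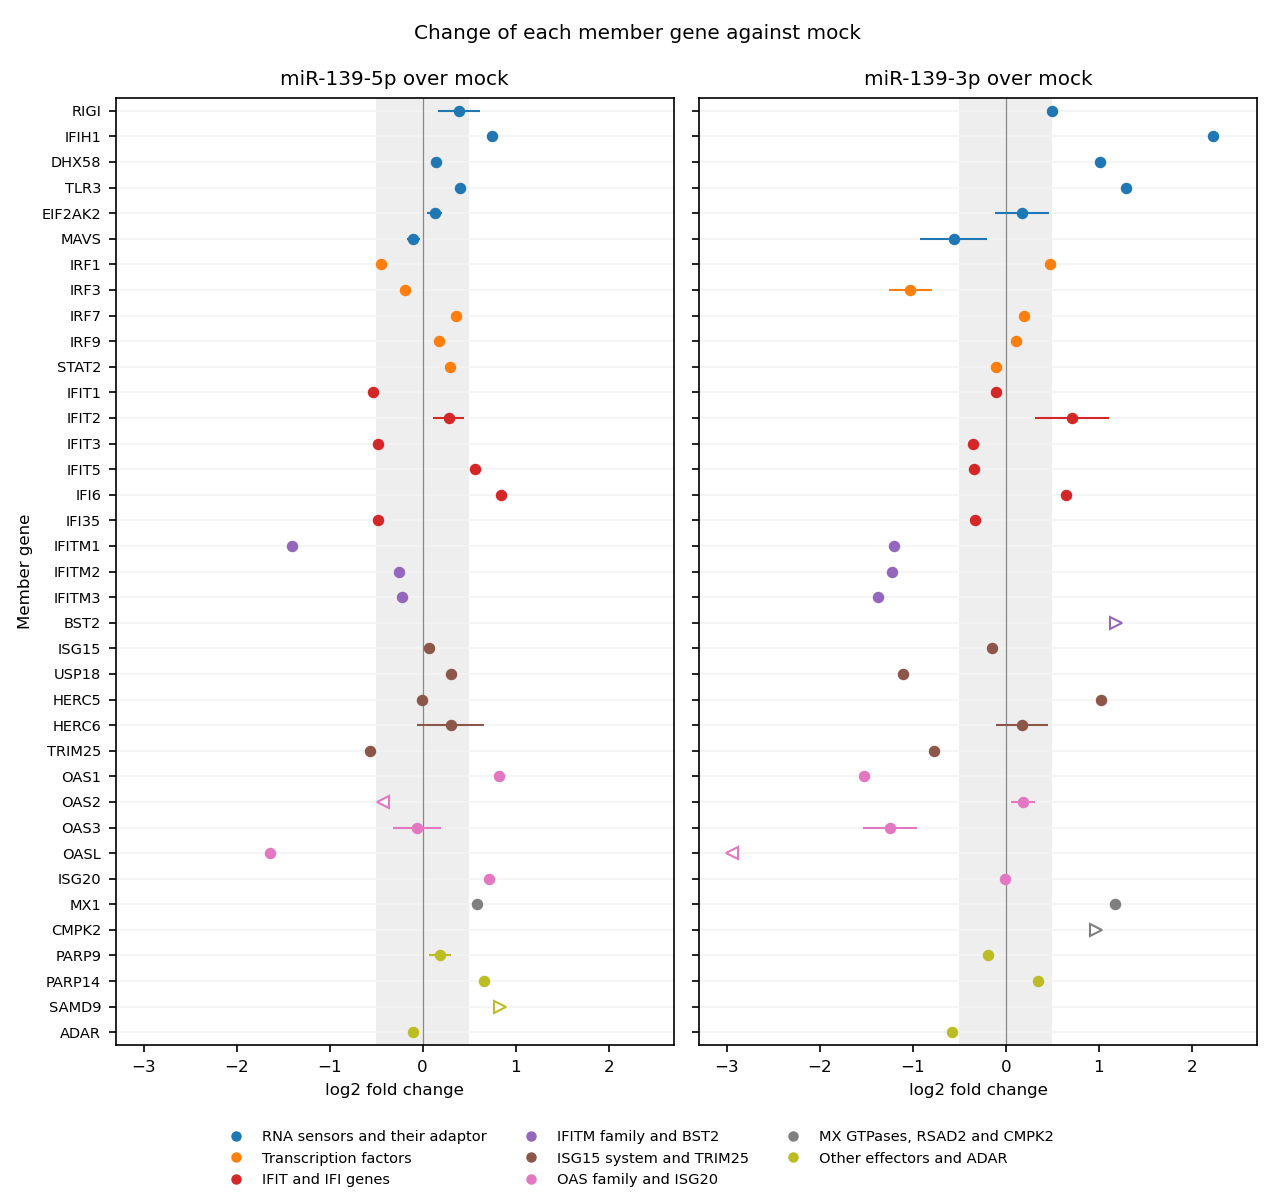
Log2 fold change of each member with a value, miR-139-5p over mock on the left and miR-139-3p over mock on the right; filled points are measured on both arrays, bars are the SD between probes where a gene has 2 or more, open triangles are bounds and the grey band marks -0.5 to 0.5. IFIH1 at 2.23 and OASL at -2.94 lie furthest out with miR-139-3p, and IFITM1 and OASL are past -1 with miR-139-5p.

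IFIH1, IFI6 and MX1 were higher in both comparisons with mock, IFITM1, OASL and TRIM25 lower in both, and OAS1 went past the threshold in opposite directions. With the normexp correction IFIH1 (0.29), MX1 (0.20), IFITM1 (-0.36), OASL (-0.39) and OAS1 (0.44) came within the threshold for miR-139-5p over mock. TRIM25 was at -0.45 in 1 of 10 alternatives, and IFI6 fell within the threshold for miR-139-3p over mock in some of them, down to 0.44. A further 11 members were past the threshold with miR-139-3p but not with miR-139-5p, 4 with miR-139-5p but not with miR-139-3p, and 12 in neither comparison, of 34 with a value in both. Over all genes too, more passed with miR-139-3p (26.5% higher and 27.9% lower) than with miR-139-5p (10.7% and 12.3%). The same overlap was not counted over all genes, so these numbers are not read as a trait of the members. That a gene passed in 1 comparison and not in the other was not tested as a difference.

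With miR-139-3p over mock, direction went with brightness in mock over all genes, and in the members past the threshold at the dim and bright ends. Genes measured on both arrays were divided by their scaled mock signal after the values had been seen. With miR-139-3p over mock, 55.5% of the 2405 genes from 0.05 to 0.25 were higher and 28.9% were above 1, whereas of the 5865 genes from 2.5 upwards 10.4% were higher and 39.0% lower. IFIH1, TLR3, DHX58, MX1 and IFIT2 all lay in the dim range, and MAVS, IRF3, TRIM25, ADAR, IFITM2 and IFITM3 in the bright range. Within the threshold were the dim HERC6 and OAS2 and the bright STAT2, EIF2AK2, ISG15, ISG20, IFI35 and IFIT5. In the middle range, 24.4% of 6106 genes were higher and 27.4% lower, with 10.3% above 1 and 11.5% below -1. OAS1, OAS3, USP18 and IFITM1 were among the genes below -1, whereas HERC5 (1.02) and IFI6 (0.65) in this range were higher. With miR-139-5p over mock the dependence was smaller, with 17.8% of 2159 dim genes and 6.1% of 5955 bright genes higher. Of the bright members past the threshold there, ISG20 (0.71) and IFIT5 (0.56) were higher and TRIM25 (-0.57) lower. The part of the slide in this dependence was not tested. The normexp correction, which shrinks the folds of dim probes, brought TLR3 (0.33), DHX58 (0.34), MX1 (0.45) and HERC5 (0.50) within the threshold with miR-139-3p over mock. It also brought IFIT2, BST2, CMPK2 and IFI6 within it, left IFIH1 higher at 0.97, and moved IFITM1 to -0.29. Over the alternatives IFIT2 stayed past the threshold in 6 of 10, CMPK2 in 6 of 9, BST2 in 8 of 9 and OAS3 in 9 of 10. Their values smallest in size were 0.20, 0.18, 0.27 and -0.50. Repeat spots of dim probes differed by a median SD of 0.21 in mock (8 probes) and 0.22 with miR-139-3p (6 probes). Over all 287 and 284 probes with repeat spots it was 0.05 and 0.06, while each member probe had 1 spot.

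**Figure D3:**
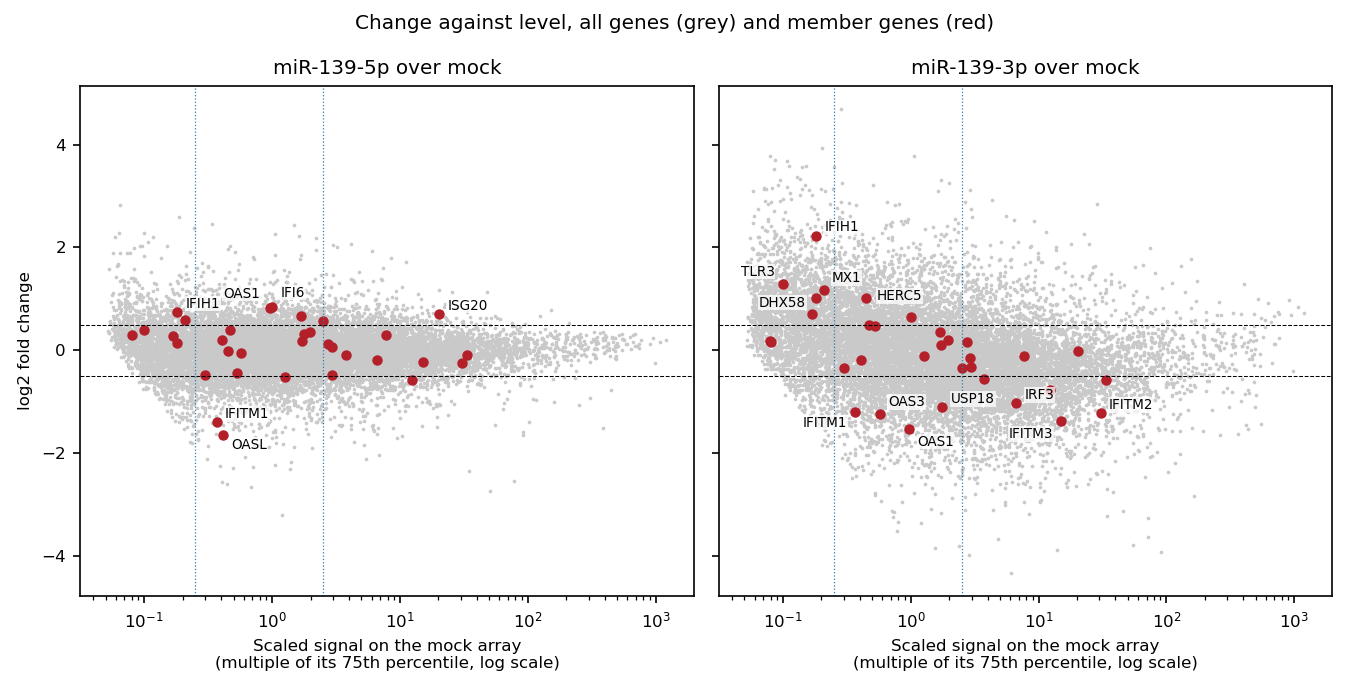
Log2 fold change against the scaled signal on the mock array (log axis) for genes measured on both arrays, all genes in grey and members in red; dashed lines mark -0.5 and 0.5 and dotted lines 0.25 and 2.5. With miR-139-3p the grey cloud lies higher on the dim side, where IFIH1, TLR3, DHX58 and MX1 lie, and lower on the bright side, where IRF3, IFITM2 and IFITM3 lie.

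Members with an ISRE core as searched were more often higher than lower, but both directions occurred among them. A difference from members without a match was not tested. The search required 2 bases between the GAAA repeats, so GAAACGAAA, or TTTCGTTTC on the other strand, was not counted. Such a sequence stood in the windows of OAS1, RIGI, TRIM25 and CMPK2, which therefore fell among the members without a match. The division below is by the searched pattern only. Of the members with a match, 17 had a value with miR-139-3p over mock, 6 higher and 3 lower, median -0.01, and of those without a match 11 had a value, 1 higher and 4 lower, median -0.11. With the normexp correction IFIH1 alone remained higher, so the excess did not hold there. With miR-139-5p over mock, 7 of 17 members with a match were higher and 2 lower, median 0.19, against 1 higher and 1 lower of 10 without, median 0.04. Over all genes with a match, 28.8% of 468 were higher and 25.6% lower with miR-139-3p, and 10.4% and 9.49% of 453 with miR-139-5p, close to the shares over all genes. Of the excerpts printed above, those before IFIH1 and IFI6 preceded genes that were higher in both transfections, the one before ISG15 a gene within the threshold, and those before IFITM1 and IFITM3 genes that were lower with miR-139-3p.

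Other genes of the pathway were counted in 8 lists, to be read beside the 26.5% higher and 27.9% lower over all genes with miR-139-3p and the 10.7% and 12.3% with miR-139-5p. Of the interferon receptors and their JAK-STAT partners, all 7 were measured, and with miR-139-3p none was higher and 1 was lower. The list of adaptors and kinases also held the NF-kappa B genes RELA and NFKB1. It was mostly within the threshold, with 1 of 10 higher and 2 lower with miR-139-3p and none past it with miR-139-5p. Those lower were MYD88 at -0.70 and IKBKE at -1.11, and the higher one was TRAF3 at 0.66. Of the endosomal RNA sensors, TLR7 and TLR8, which recognise single-stranded RNA, were not well above background on any array. TLR9, which recognises DNA, was well above background with miR-139-3p only, at least 1.58-fold higher than mock, and UNC93B1, which carries these receptors to the endosome, was -1.58 over mock with miR-139-3p.

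Further interferon-stimulated genes outside the set were more often higher than lower with miR-139-3p, 9 against 3 of 19 with a value (47.4% and 15.8%, beside 26.5% and 27.9% over all genes), and 1 against 1 of 17 with miR-139-5p. Whether the list differs from other genes of the same brightness was not tested, and GBP3, LAMP3 and TRIM22 were dim in mock, where higher values were common. GBP3, a guanylate-binding protein, read 0.0884 in mock, 0.107 after miR-139-5p and 0.421 after miR-139-3p, 2.25 over mock with miR-139-3p. TRIM22 was well above background with miR-139-3p only, at 0.444, at least 8.61-fold higher than mock. PARP10, LAMP3 and HELZ2 were 1.70, 2.47 and 1.48 over mock. The interferon-induced chemokines CXCL10, CXCL11 and CCL5 were not well above background on any array, nor was GBP1. PLSCR1 went the other way at -1.44, and the probes of SP100 disagreed with an SD of 0.96.

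Among the genes of the pathway lists measured on both arrays, the largest value belonged to a negative regulator. TNFAIP3 (A20), an NF-kappa B target that restrains RIG-I and NF-kappa B signalling, read 0.108 in mock, 0.235 after miR-139-5p and 0.978 after miR-139-3p, 1.12 and 3.18 over mock. Its value rested on 1 probe that was dim in mock, where higher values were common with miR-139-3p. NFKBIA, the NF-kappa B inhibitor, read 13.7, 15.8 and 41.7, 0.20 and 1.60 over mock, and it was bright in mock. Of 8 negative regulators with a value 4 were higher and 2 lower with miR-139-3p, SOCS3 among the lower at -0.66, beside 26.5% and 27.9% over all genes, and with miR-139-5p 1 of 9 was higher and none lower. Of the DNA-sensing genes, IFI16 was 1.63, SAMHD1 0.59 and CGAS 0.52 over mock with miR-139-3p, and STING1 was -0.89. IFI16 (0.0589) and SAMHD1 (0.160) were dim in mock, where higher values were common. With miR-139-5p STING1 was -0.59, and IFI16, SAMHD1 and CGAS were within the threshold. AIM2 was not well above background and TREX1 had no matched probe. Among RNA decay and editing partners DICER1 alone passed the threshold, at 1.23 after miR-139-5p and 0.76 after miR-139-3p.

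**Figure D4:**
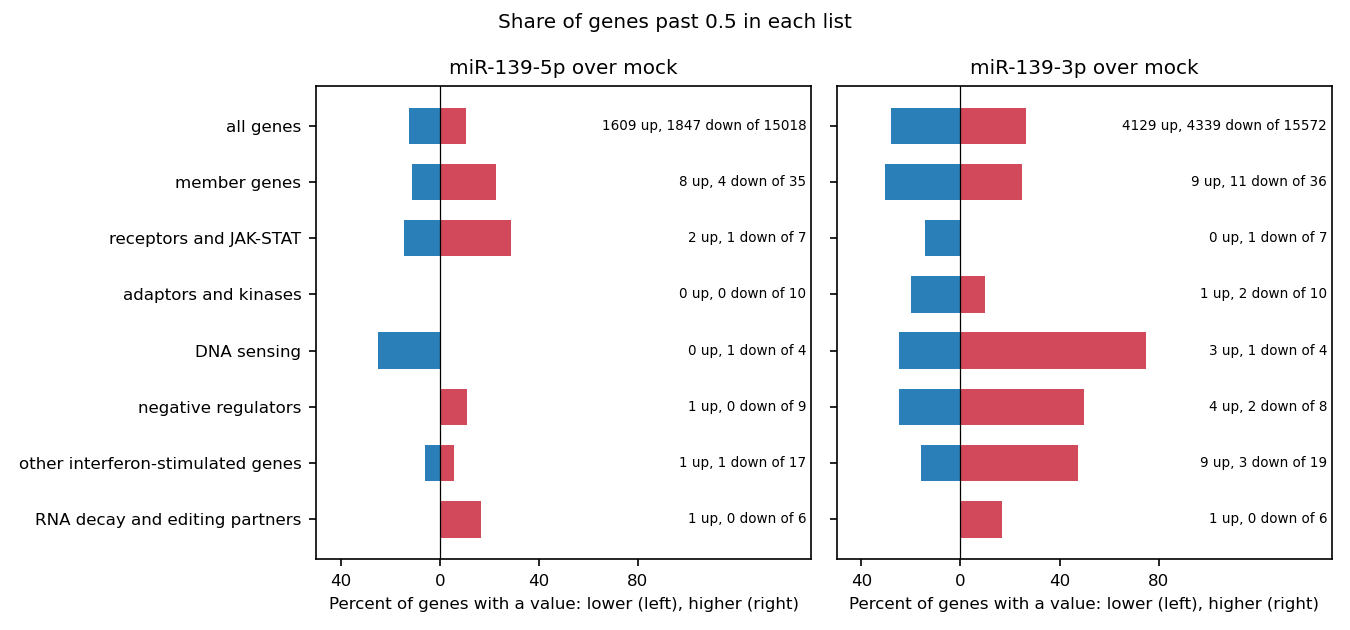
Percent of genes with a value that were higher (red, to the right) or lower (blue, to the left) in each list, miR-139-5p over mock on the left and miR-139-3p over mock on the right, with the counts beside the bars. The members lie near all genes with miR-139-3p, and the other interferon-stimulated genes have 9 higher and 3 lower of 19.

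For reference, MCM2, a replication helicase subunit, read 10.5 in mock, 6.43 after miR-139-5p and 1.39 after miR-139-3p, -0.71 and -2.92 over mock, and TRIP13 -0.09 and -2.12. CDKN1A, a cell cycle inhibitor, was -0.97 after miR-139-5p and 1.62 after miR-139-3p. GAPDH read 392, 376 and 268, -0.06 and -0.55 over mock, so a housekeeping gene was itself past the threshold with miR-139-3p. The label A549 was checked on markers fixed as lists: the epithelial KRT8, KRT18, KRT19, EPCAM and CDH1 were all well above background on all 3 arrays, while HLA-DRA, CD74, PECAM1, COL3A1, DCN and LUM were on none, and PTPRC, CD14, CDH5 and COL1A1 were measured on all arrays, CD3E with miR-139-3p only and VWF in mock and with miR-139-3p. Markers of each kind differed between arrays. With miR-139-3p over mock PTPRC was 1.26, VWF 1.05, CDH5 1.00, EPCAM 0.97, COL1A1 -0.61, KRT8 -0.74, KRT18 -0.84 and CD14 -1.98, and with miR-139-5p over mock COL1A1 was 1.41, KRT19 -0.52, CDH1 -0.54, KRT18 -0.77 and KRT8 -0.85.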

How the data were processed

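Per the file headers, the authors' spot intensity values came from Agilent Feature Extraction 12.1.1.1, background-subtracted and with no scaling between arrays. The deposited log2 table of the same arrays was quantile-normalized, as its columns share 1 distribution, and served as an alternative. Spots marked as outliers were left out (614 in mock, 935 after miR-139-5p and 1526 after miR-139-3p), spots were averaged per probe, and a probe counted as well above background when 50% of its spots did. The log2 processed signal minus that of the 75th percentile over non-control spots was used. Accessions of 31104 of 58201 probes were named through RefSeq without versions. Members and lists were chosen with earlier results of these data known. Values were given for listed sensors, factors, interferons and effectors and for members past 1 in a comparison; other genes were named after their values were seen. The steps were tested on simulated data. Python 3.11.15, pandas 2.3.3 and limma 3.58.1 were used.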

Additional observations from a re-analysis of the deposited data

Results flagged for a closer look

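OAS1 was the member past the threshold in opposite directions in the comparisons with mock, 0.82 after miR-139-5p and -1.53 after miR-139-3p. The difference was not tested, since each condition had 1 array, and both comparisons share the mock array. With the normexp background correction the former was 0.44, within the threshold.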

How the results depend on the processing

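No paired analysis was possible because each condition had 1 array. No single gene past the threshold changed sign under any alternative that gave it a value. The normexp background correction adds an offset of 50 and so shrinks the folds of dim probes. With it the members higher numbered 1 with miR-139-3p over mock, 2 with miR-139-5p over mock and 1 with miR-139-3p over miR-139-5p. The main analysis gave 9, 8 and 9. Over all genes the higher ones fell as well, to 1552, 517 and 1585 from 4129, 1609 and 4075, in that order. With miR-139-5p over mock 1 member was lower, beside 630 over all genes. IFIH1 was the gene still higher with miR-139-3p, at 0.97. With spike-in scaling 2 members were lower with miR-139-5p over mock and 17 with miR-139-3p over miR-139-5p, and the latter median was -0.46. Over all genes 1212 and 6538 were then lower, against 1847 and 4303 in the main analysis. Without scaling 8 members were lower with miR-139-5p over mock, beside 7 higher, and without the filter on dim probes 9, beside 8 higher. Over all genes 2375 were lower and 1217 higher without scaling. With quantile normalization or the deposited log2 values 4 members were higher with miR-139-3p over miR-139-5p, beside 3545 and 3359 over all genes. At a threshold of 1, 0 members were higher and 2 lower with miR-139-5p over mock, beside 288 and 357 over all genes. With miR-139-3p over miR-139-5p 3 were higher and 5 lower, beside 1977 and 1853. The cause of these shifts was otherwise not tested. The median of all genes with miR-139-3p over mock moved by 0.17 with the percentile over detected probes, by -0.19 with spike-ins and by -0.21 without scaling, and with miR-139-5p over mock by 0.12 with spike-ins. With miR-139-3p over mock the members then numbered 12 higher and 9 lower, 8 and 14, and 8 and 14. Over all genes the numbers moved likewise, to 5120 and 3291, 3114 and 5751, and 3048 and 5876, from 4129 and 4339. With miR-139-3p over miR-139-5p the median of all genes moved by 0.19 with the percentile over detected probes, by -0.32 with spike-ins and by -0.14 without scaling. Other counts and medians of the members stayed within the limits set for them. With miR-139-3p over miR-139-5p those limits allowed a move from 9 to 13 lower without scaling, beside 4303 to 5252 over all genes. They also allowed a move from 9 to 6 higher with bounds left out.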
